A study of Mus musculus with 4 samples.

Results

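The genes described here are 36 mouse genes of mitosis and of the G2/M step that leads into it: cyclins and their kinase, the mitotic kinases, the chromosomal passenger complex, the spindle checkpoint, kinetochore and spindle proteins, cytokinesis proteins and the machinery that separates sister chromatids. They were chosen by name, and their probes by RefSeq accession. That gave 50 of the 41174 probes on the array and 35 of the 36 genes. Mki67, the gene of the proliferation antigen Ki-67, had no probe by that rule. Each of the 35 genes had a probe above background in all 8 channels, and all 35 were among the 21754 genes tested. The D3 line is a mouse embryonic stem cell line. Silenced cells had been transfected with siRNA against Pnpla6 (called siNTE in the labels), which encodes neuropathy target esterase, a phospholipase. Control cells are named only as control, and what they were transfected with is not stated. After transfection the cells formed embryoid bodies in serum medium lacking LIF, which otherwise holds such cells back from differentiation, and total RNA was taken at 24 h or 96 h. Each of the 4 arrays set silenced against control RNA of the same time in Cy3 and Cy5, with 2 arrays per time and the dyes exchanged between them. Nothing says whether the replicates are separate cultures, so the p-values cover these arrays only and the spread behind them may be technical. For the silencing effects that spread is mostly pooled across genes, after a term for the dye, which coincides with the replicate number. A replicate difference shared by both times is left out of it.

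Proteins of mitosis are made in a wave. Most of their genes are repressed in resting and early cycling cells by the DREAM complex and are activated late in the cycle by B-Myb and FoxM1, through a promoter element called the cell cycle genes homology region (CHR) that often lies next to NF-Y sites. Embryonic stem cells cycle fast, with a very short G1 phase, and G1 becomes longer as they differentiate, so the level of these transcripts in bulk RNA is commonly read as a measure of how many cells are cycling. In bulk RNA, fewer cells of a kind and less RNA per cell cannot be told apart.

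The targeted gene checked the labels at 24 h. Pnpla6 had log2 ratios of silenced to control cells of -0.73 and -1.002 on the 24 h arrays, with a fitted change of -0.87 (SE 0.06, adjusted p = 2.59e-11). At 96 h its ratios were 0.12 and -0.11 and the fitted change was 0.01 (adjusted p = 0.96), so no lower level was measured at the later time. The 24 h change stayed between -1.002 and -0.72 under 10 alternative settings but passed in 3 of them, and not with an offset of 16, with the authors' processed signals, without the dye term or without any 1 array. Per channel, 62.5% to 68.7% of the 43379 spots other than controls were well above background, and none was saturated. Across the 21754 genes tested, the ratios of the 24 h arrays correlated at -0.434 and those of the 96 h arrays at 0.151 once turned to silenced over control. The arrays of a time carry opposite dyes, and the fit has a term for the dye.

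Between 24 h and 96 h the mitosis genes went down in control cells, by a modest amount. Of 35 genes, 13 fell, 1 rose and 21 did not pass the test (adjusted p under 0.05 over all genes, limma on single channels), where 36.4% of all genes passed. The median log2 change was -0.31, a median level at 96 h of 80.5% of that at 24 h, against a median of -0.003 over all genes tested. Over all genes 16.9% fell and 19.5% rose. Both 96 h levels lay below both 24 h levels for 27 of the 35 genes, and above them for 5, while 36.4% of all genes lay below without overlap and 36.9% above. In silenced cells 15 of the 35 genes fell and 1 rose, with a median change of -0.27, where 37.2% of all genes passed, 17.6% lower and 19.6% higher. There, 25 genes lay lower and 4 higher without overlap, beside 36.1% and 35.7% of all genes. The same 12 genes fell in both courses, and 17 passed in at least 1 of them. Both courses were read from the same 4 arrays, since each spot holds both RNAs.

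**Figure D1:**
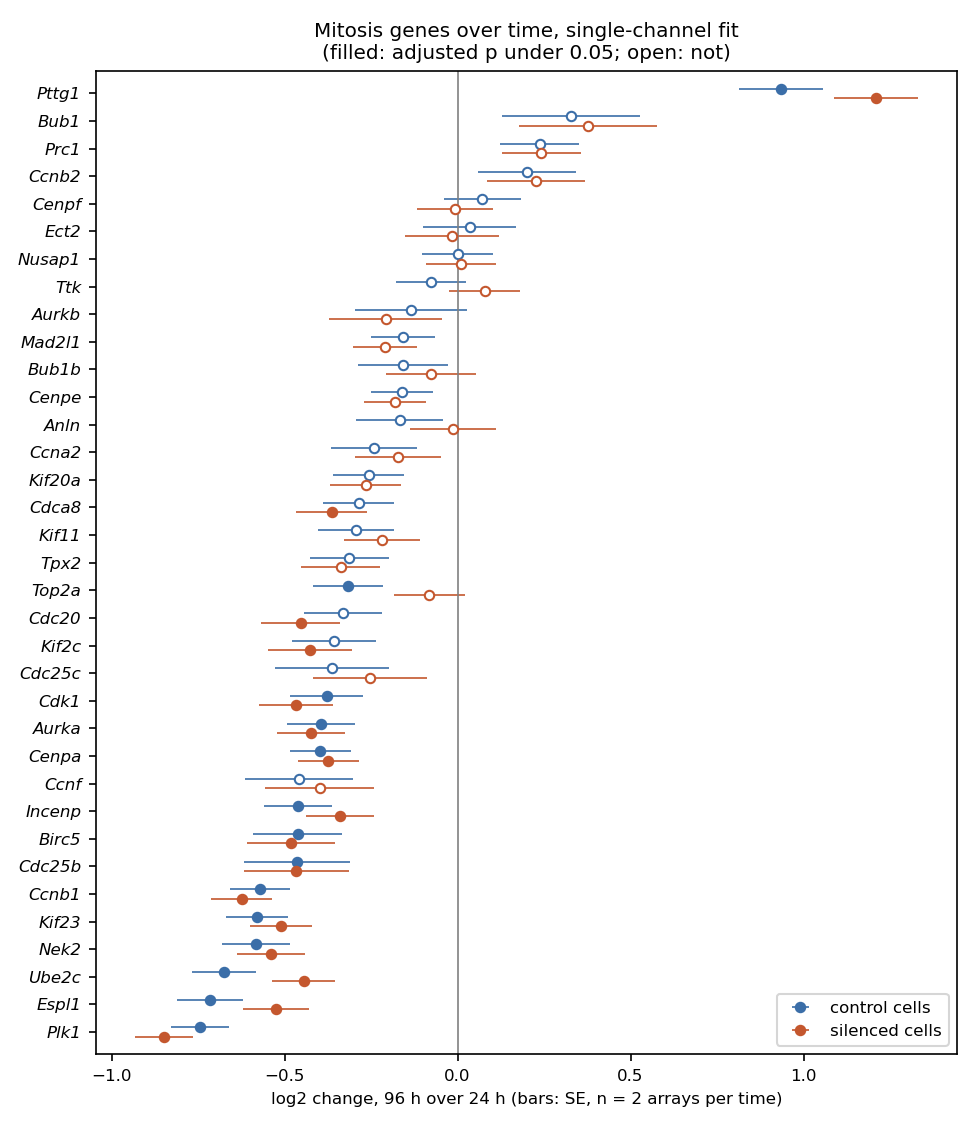
The log2 change from 24 h to 96 h (x axis) of the 35 mitosis genes in control cells (blue) and silenced cells (orange), from the single-channel fit, with bars for the SE and filled points where the adjusted p was under 0.05. Most points lie left of 0, from Plk1 at -0.74 and -0.85 up to Pttg1, which stands alone on the right at 0.93 and 1.21.

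Promoters of the 6 genes that fell furthest in control cells, of Cdc20 and of 2 genes that did not fall, Ccnb2 and Pttg1, are shown to set the movers beside the members that differed. Each line gives 170 bases before and 30 bases after the annotated start from RefSeq (GRCm38.p6), written 5′ to 3′ on the gene's own strand. Capitals mark TTTGAA (the CHR hexamer), its variant TTTAAA, and CCAAT (the NF-Y box), with a match on the other strand appearing as TTCAAA or ATTGG. The windows are chr7:122159265-122159464 (plus strand) for Plk1, chr15:102296123-102296322 (plus strand) for Espl1, chr2:164769759-164769958 (plus strand) for Ube2c, chr1:191821303-191821502 (plus strand) for Nek2, chr13:100786457-100786656 (minus strand) for Ccnb1, chr9:61946770-61946969 (minus strand) for Kif23, chr4:118437314-118437513 (minus strand) for Cdc20, chr9:70421525-70421724 (minus strand) for Ccnb2 and chr11:43425952-43426151 (minus strand) for Pttg1.
Plk1: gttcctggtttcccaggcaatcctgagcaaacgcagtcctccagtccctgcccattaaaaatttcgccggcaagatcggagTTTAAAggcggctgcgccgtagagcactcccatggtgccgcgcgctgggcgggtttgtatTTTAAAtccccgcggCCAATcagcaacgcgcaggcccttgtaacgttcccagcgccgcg
Espl1: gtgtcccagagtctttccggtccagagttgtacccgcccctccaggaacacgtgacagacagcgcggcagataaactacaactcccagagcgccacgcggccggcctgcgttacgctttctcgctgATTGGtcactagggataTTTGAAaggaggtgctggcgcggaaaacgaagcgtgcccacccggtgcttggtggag
Ube2c: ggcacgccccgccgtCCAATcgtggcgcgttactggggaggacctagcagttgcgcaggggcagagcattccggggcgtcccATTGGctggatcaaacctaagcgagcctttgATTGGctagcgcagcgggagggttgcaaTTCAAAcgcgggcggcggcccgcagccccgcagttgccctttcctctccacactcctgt
Nek2: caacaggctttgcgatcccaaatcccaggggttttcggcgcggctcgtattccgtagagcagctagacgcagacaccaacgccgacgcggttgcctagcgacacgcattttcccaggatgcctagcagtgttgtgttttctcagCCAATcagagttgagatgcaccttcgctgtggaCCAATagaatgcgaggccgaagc
Ccnb1: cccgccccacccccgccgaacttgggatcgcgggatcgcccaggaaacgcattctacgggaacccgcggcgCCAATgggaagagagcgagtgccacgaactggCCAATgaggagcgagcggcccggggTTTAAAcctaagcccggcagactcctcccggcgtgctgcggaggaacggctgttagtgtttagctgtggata
Kif23: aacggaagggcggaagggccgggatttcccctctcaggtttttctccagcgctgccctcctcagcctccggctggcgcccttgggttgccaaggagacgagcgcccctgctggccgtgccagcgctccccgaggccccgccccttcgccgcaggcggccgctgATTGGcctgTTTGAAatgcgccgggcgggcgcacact
Cdc20: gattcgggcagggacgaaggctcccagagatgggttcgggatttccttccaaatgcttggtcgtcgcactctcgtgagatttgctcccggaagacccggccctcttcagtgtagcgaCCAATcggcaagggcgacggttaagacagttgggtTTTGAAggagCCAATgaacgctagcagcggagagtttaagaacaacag
Ccnb2: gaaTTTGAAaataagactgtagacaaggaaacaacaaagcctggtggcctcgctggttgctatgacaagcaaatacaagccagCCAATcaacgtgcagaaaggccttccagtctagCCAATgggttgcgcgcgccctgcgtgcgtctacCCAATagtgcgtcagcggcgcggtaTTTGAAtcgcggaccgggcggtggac
Pttg1: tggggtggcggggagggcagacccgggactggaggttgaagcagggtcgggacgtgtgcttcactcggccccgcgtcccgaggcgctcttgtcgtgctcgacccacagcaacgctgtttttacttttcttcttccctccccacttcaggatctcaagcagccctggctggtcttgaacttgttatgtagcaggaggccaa

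In Espl1, Cdc20, Kif23 and Ccnb2 a TTTGAA lies downstream of an NF-Y box and close to the start, at positions -27, -18, 3 and 5. Ccnb2 has a further TTTGAA at -167, upstream of its NF-Y boxes, and Cdc20 a further CCAAT at -8, downstream of its hexamer. In Ube2c the hexamer lies at -29 on the other strand. Ccnb1 holds the variant at -42 and Plk1 at -89 and -29, and Plk1 has a further TTTGAA at 31, just past the printed window. Nek2 holds CCAAT at -26 and 8 and neither hexamer. Pttg1 holds none of the 3 motifs in the 300 bases searched. Promoters of 30 of the 36 genes were in the table (Ccna2, Cdc25c, Aurkb, Incenp, Tpx2 and Kif20a were not matched). TTTGAA on either strand was found in 21 of these 30 (70%), against 18.1% of all 27025 genes with a promoter of the same length. CCAAT was found in 24 (80%, against 37.9%), TTTAAA in 8 (26.7%, against 13.2%), and TTTGAA together with CCAAT in 19 (63.3%, against 7.12%). In 35 promoters of DNA replication and G1/S genes TTTGAA was found in 20% and CCAAT in 60%. Genes with both motifs were found at either end of the change over time: Prc1, Ccnb2, Cenpf and Ttk held both TTTGAA and CCAAT and did not pass as lower, whereas Nek2 and Cdc25b, which fell in both courses, held CCAAT and neither hexamer.

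**Figure D2:**
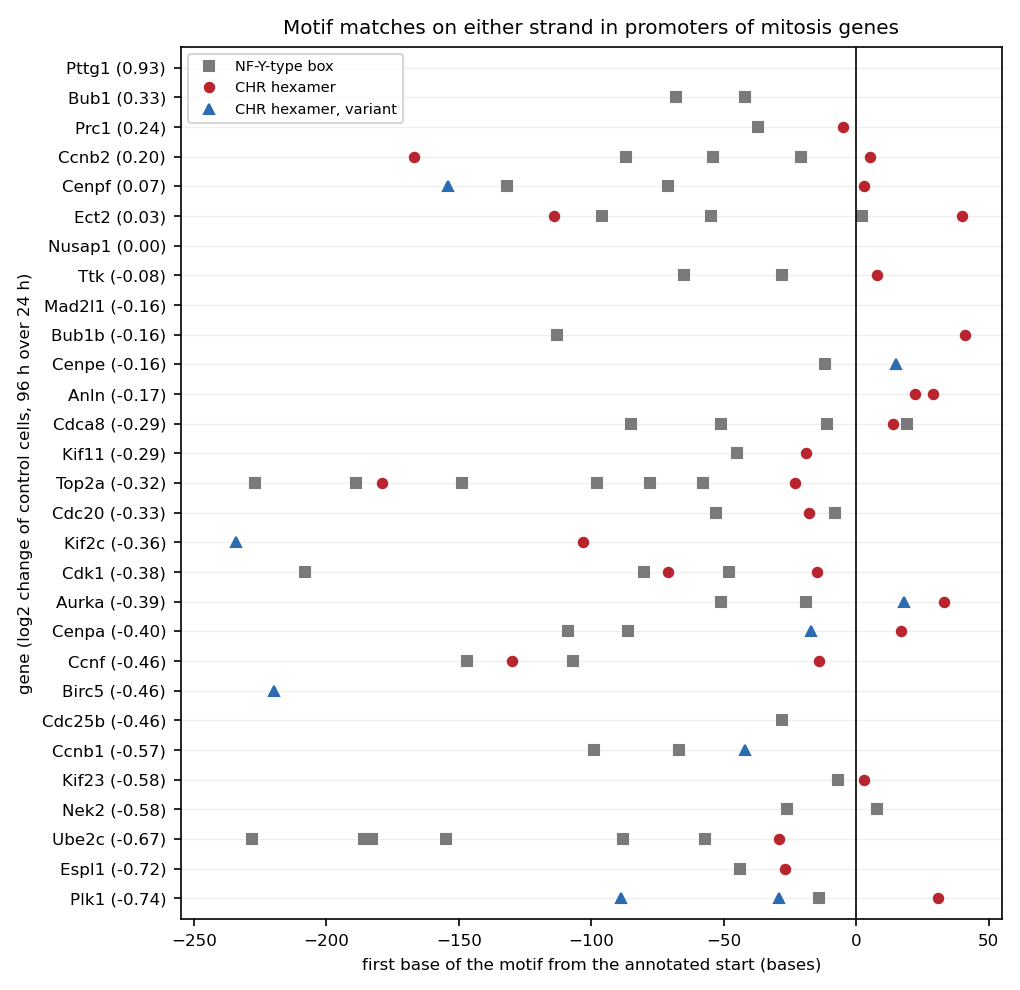
Position of each motif match, as the distance of its first base from the annotated start in bases (x axis), in 29 promoters of tested mitosis genes, ordered by the log2 change of control cells given beside the name. Red circles (CHR hexamer) gather around the start and grey squares (NF-Y-type box) upstream of it, in genes at the top as well as the bottom, and the lines of Pttg1, Nusap1 and Mad2l1 are empty.

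The kinase that opens mitosis fell, and so did cyclin B1, a cyclin it binds. Cdk1, the catalytic subunit, had log2 levels of 11.02 and 11.04 in control cells at 24 h and 10.63 and 10.68 at 96 h, and in silenced cells 10.94 and 11.07 at 24 h and 10.53 and 10.54 at 96 h. The levels of the 2 times did not overlap. The change was -0.38 (SE 0.11, adjusted p = 0.0264) in control and -0.47 (adjusted p = 0.0110) in silenced cells. Ccnb1, cyclin B1, stood at 12.42 and 12.45 in control cells at 24 h and at 11.82 and 11.91 at 96 h. In silenced cells it stood at 12.39 and 12.42, then at 11.75 and 11.81. Every 96 h level lay below every 24 h level, with changes of -0.57 (SE 0.09, adjusted p = 0.00198) and -0.62 (adjusted p = 0.00127). Cdc25b, a phosphatase that activates Cdk1, fell by 0.46 (adjusted p = 0.0471) and 0.47 (adjusted p = 0.0454), close to the threshold.

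Ccnb2, cyclin B2, did not follow cyclin B1. Its levels were 14.56 and 14.63 in control cells at 24 h and 14.80 and 14.80 at 96 h, without overlap in the upward direction, but the change of 0.20 (SE 0.14) did not pass (adjusted p = 0.313). In silenced cells it was 0.23 (adjusted p = 0.252). The other members of this group did not pass in either course: Ccna2, cyclin A2, had changes of -0.24 and -0.17, Ccnf, cyclin F, -0.46 (adjusted p = 0.0544) and -0.40, and Cdc25c, a second Cdc25 phosphatase, -0.36 and -0.25.

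Plk1, Nek2 and Aurka, mitotic kinases that belong neither to the passenger complex nor to the spindle checkpoint, fell in both courses. Plk1, the Polo kinase that acts from mitotic entry to cytokinesis, had the largest fall of the 35 genes. Its log2 levels were 13.61 and 13.63 in control cells at 24 h and 12.89 and 12.86 at 96 h. In silenced cells they were 13.60 and 13.66, then 12.78 and 12.79. Replicates differed by less than 0.1 while the times differed by more than 0.7. The change was -0.74 (SE 0.08, adjusted p = 0.000483) in control and -0.85 (adjusted p = 0.000264) in silenced cells, or 59.7% and 55.6% of the 24 h level. Nek2, a centrosome kinase, went from 10.31 and 10.46 to 9.70 and 9.91 in control cells and from 10.42 and 10.33 to 9.90 and 9.77 in silenced cells. Its changes were -0.58 (SE 0.10, adjusted p = 0.00304) and -0.54 (adjusted p = 0.00417). Aurka, Aurora A, which matures centrosomes and the spindle, fell by 0.39 (adjusted p = 0.0166) and 0.42 (adjusted p = 0.0119).

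**Figure D3:**
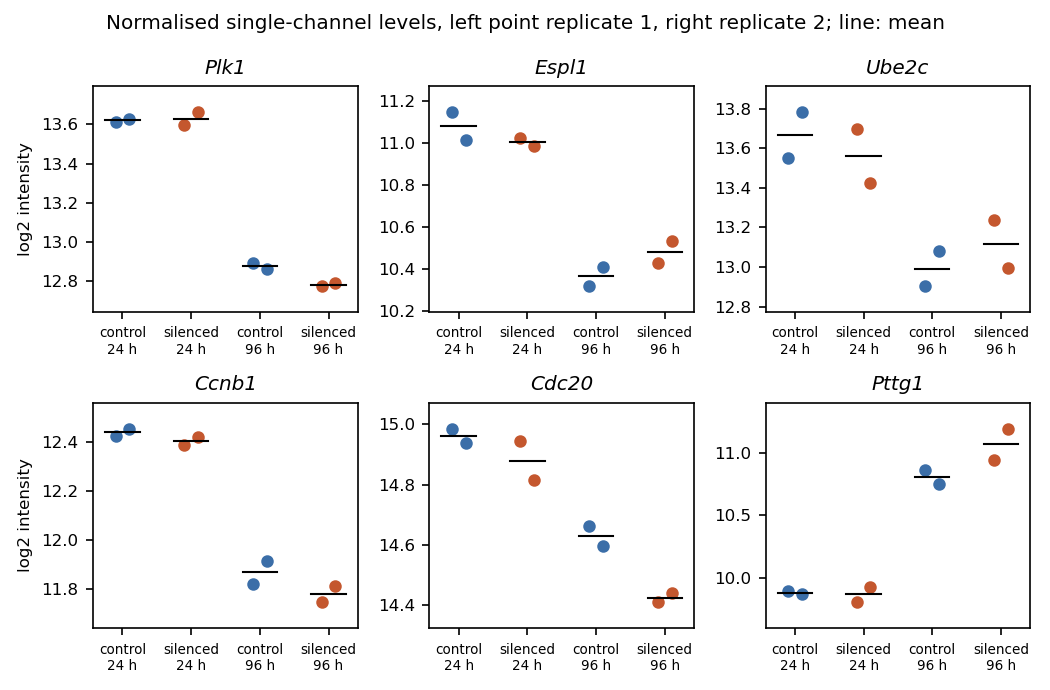
Normalised log2 intensity (y axis) of 6 mitosis genes in each of the 8 channels, with control cells in blue, silenced cells in orange, the left point replicate 1, the right point replicate 2 and a line at the mean. The axes do not start at 0. Plk1, Espl1, Ube2c, Ccnb1 and Cdc20 stand lower at 96 h in both kinds of cell and Pttg1 higher, and at 96 h silenced cells lie above control cells for Pttg1 and below them for Cdc20.

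Of the 4 subunits of the chromosomal passenger complex, which corrects faulty attachments of chromosomes to the spindle, Birc5 and Incenp fell in both courses. Birc5, survivin, had log2 levels of 14.99 and 14.49 in control cells at 24 h and 14.33 and 14.22 at 96 h, and 14.71 and 14.66, then 14.11 and 14.29 in silenced cells. The 24 h control replicates lay further apart than the later ones, and the times still did not overlap. Changes were -0.46 (SE 0.13, adjusted p = 0.0256) and -0.48 (adjusted p = 0.0213). Incenp, the scaffold, fell by 0.46 (adjusted p = 0.00868) and 0.34 (adjusted p = 0.0293). Cdca8, borealin, fell in silenced cells by 0.36 (adjusted p = 0.0266) and had a change of -0.29 (adjusted p = 0.0640) in control cells. Aurkb, the kinase itself, had changes of -0.13 and -0.21 that did not pass.

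The spindle checkpoint, which holds anaphase until every chromosome is attached, had no member that passed. Mad2l1 had changes of -0.16 and -0.21 (adjusted p = 0.231 and 0.115), Bub1b -0.16 and -0.08, Ttk -0.08 and 0.08, and Bub1 0.33 and 0.38. Bub1 lay higher at 96 h without overlap in both kinds of cell, with control levels of 11.53 and 11.59 and then 11.94 and 11.84, but its SE of 0.20 was the largest of the list (adjusted p = 0.244 and 0.182). Bub3 and Mad1l1, checkpoint genes counted below with the kinetochore and cohesin protection genes, did fall in both courses. Bub3 had changes of -0.52 (adjusted p = 0.00262) in control and -0.60 (adjusted p = 0.00139) in silenced cells. Those of Mad1l1 were -0.50 (adjusted p = 0.0124) and -0.47 (adjusted p = 0.0155). Of the centromere and kinetochore genes, Cenpa, the histone variant that marks centromeres, fell by 0.40 (adjusted p = 0.0105) and 0.37 (adjusted p = 0.0131). Cenpe, a kinetochore motor, had changes of -0.16 and -0.18, and Cenpf 0.07 and -0.01, none of which passed.

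Among spindle motors and microtubule proteins, Kif2c, a microtubule depolymerase at centromeres, fell in silenced cells by 0.43 (adjusted p = 0.0288) and had a change of -0.36 (adjusted p = 0.0552) in control cells. Kif11, the motor that pushes spindle poles apart, had changes of -0.29 and -0.22. Tpx2, which nucleates spindle microtubules, had changes of -0.31 and -0.34 (adjusted p = 0.0688 and 0.0523). Nusap1, a spindle-bundling protein, stood at 11.45 and 11.39 at 24 h and 11.32 and 11.53 at 96 h in control cells, with overlapping replicates and changes of 0.00 and 0.01.

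Of 5 cytokinesis genes, each read on its brightest probe, Kif23, a motor of the centralspindlin complex, fell. A dimmer probe of Ect2 fell in both courses and one of Anln in silenced cells, and they are described with the other second probes. The levels of Kif23 were 10.92 and 11.01 in control cells at 24 h and 10.40 and 10.38 at 96 h. In silenced cells they were 11.05 and 10.96, then 10.56 and 10.42. No 96 h level reached a 24 h level, and the changes were -0.58 (SE 0.09, adjusted p = 0.00204) and -0.51 (adjusted p = 0.00360). Prc1, which bundles microtubules of the midzone, had changes of 0.24 and 0.24 (adjusted p = 0.147 and 0.139), higher at 96 h without overlap in both kinds of cell. Kif20a had changes of -0.26 and -0.27, Anln -0.17 and -0.01, and Ect2 0.03 and -0.02, none past the threshold. Top2a, the topoisomerase that untangles chromosomes, fell in control cells by 0.32 (adjusted p = 0.0452) and had a change of -0.08 (adjusted p = 0.583) in silenced cells. The difference between those courses, 0.23, did not pass (adjusted p = 0.112). Without the first 24 h array the change in control cells was -0.22 (adjusted p = 0.0557), and without the first 96 h array it was -0.25 (adjusted p = 0.0843).

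Genes that end mitosis moved in opposite directions. Espl1, separase, the protease that cuts cohesin, had log2 levels of 11.15 and 11.01 in control cells at 24 h and 10.32 and 10.41 at 96 h, and 11.02 and 10.98, then 10.43 and 10.53 in silenced cells. All levels fell clear of the earlier time, by 0.72 (SE 0.10, adjusted p = 0.00106) and 0.52 (adjusted p = 0.00435). Ube2c, a ubiquitin-conjugating enzyme of the anaphase-promoting complex (APC/C), went from 13.55 and 13.78 to 12.90 and 13.08 in control cells and from 13.70 and 13.43 to 13.24 and 13.00 in silenced cells. Its changes were -0.67 (SE 0.09, adjusted p = 0.00112) and -0.45 (adjusted p = 0.00736). Cdc20, the APC/C activator of anaphase, fell in silenced cells by 0.45 (adjusted p = 0.0165) and had a change of -0.33 (adjusted p = 0.0545) in control cells. Pttg1, securin, the inhibitor that holds separase inactive until anaphase, was the only member that rose. Its levels were 9.89 and 9.87 in control cells at 24 h and 10.87 and 10.76 at 96 h, and 9.80 and 9.93, then 10.95 and 11.20 in silenced cells. The levels at 96 h stood clear of those at 24 h, by 0.93 (SE 0.12, adjusted p = 0.000922) and 1.21 (adjusted p = 0.000278), which is 191% and 231% of the 24 h level.

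These calls varied in how firmly they held. Plk1, Nek2, Kif23, Espl1, Ube2c, Cdk1, Birc5, Cenpa and Pttg1 kept their call in both courses under all 12 alternative settings, those that left out an array included. Fits that left out an array called more members than the main fit did, so a call kept there says less. Ccnb1 lost it in both courses where the median of its probes was tested (-0.14 and -0.16), and Cdc25b lost it under 4 of the 12 settings in each course. Aurka lost it under 1 setting in each course. In silenced cells Incenp kept its call under 9 settings, Kif2c under 10, and Cdca8 and Cdc20 under 11, and in control cells Incenp kept it under 12 and Top2a under 9. In control cells 14 of the 35 members passed in all, where 36.4% of all genes did.

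Other genes of mitosis were drawn from 6 lists with 88 tested genes. Of these 24 fell and 8 rose in control cells and 21 fell and 8 rose in silenced cells, with medians of -0.03 and -0.07. In either direction 32 of the 88 passed in control and 29 in silenced cells. These were no larger shares than the 36.4% and 37.2% of all genes that passed. Over all genes 16.9% fell and 19.5% rose in control cells, and 17.6% fell and 19.6% rose in silenced cells. Of 20 genes of the kinetochore and of cohesin protection, 9 fell and 4 rose in control cells with a median of -0.31, led by Spc24 (-0.91, adjusted p = 0.000711), Cenpm (-0.75) and Cenpn (-0.64). Of 11 genes of the DREAM, B-Myb and FoxM1 machinery 3 fell and 1 rose in control cells. Those that fell were Tfdp1 (-0.95, adjusted p = 0.000458), E2f4 (-0.85) and Lin37 (-0.52), which serve in DREAM or its E2F dimer. Rbl1, the DREAM pocket protein p107, rose by 0.30 (adjusted p = 0.0307) in control and by 0.53 (adjusted p = 0.00275) in silenced cells. Foxm1 had a change of 0.11 and Mybl2, which encodes B-Myb, of -0.00381, neither past the threshold. Of 15 genes of the APC/C 4 fell and 1 rose, led by Fzr1 (-0.92, adjusted p = 0.000267), which encodes the activator Cdh1, and Anapc10 rose by 0.57. Of 18 further spindle and cytokinesis genes 5 fell, led by Cit (-0.74) and Racgap1 (-0.63), the partner of Kif23 in centralspindlin, and 1 rose, Psrc1 (0.58). Of 12 genes of mitotic entry 2 fell, Ppp2r2d (-0.78) and Bora (-0.36). Of 12 condensin and cohesin genes Cdca5, sororin, fell by 0.45 and Ncapd2 rose by 0.31. In either direction, 4 of the 11 DREAM, B-Myb and FoxM1 genes passed in control cells, 5 of the 15 APC/C genes and 6 of the 18 spindle and cytokinesis genes. Of the 12 mitotic entry genes 2 passed, as did 2 of the 12 condensin and cohesin genes. None of these shares was larger than the 36.4% of all genes. Of the 20 genes of the kinetochore and of cohesin protection 13 passed, a larger share.

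Genes of the preceding step of the cycle went down as well. Of 44 DNA replication and G1/S genes 22 fell and 1 rose in control cells, with a median of -0.36, and 26 fell and 1 rose in silenced cells, with a median of -0.42. Ccne1, cyclin E1, fell by 1.49 (adjusted p = 4.80e-05), Ccne2 by 1.08 and Mcm3, of the replicative helicase, by 0.98. The G1 cyclins, CDK inhibitors and pocket proteins moved both ways. In control cells 8 of 16 rose and 4 fell, where 19.5% and 16.9% of all genes did. Ccng2, an atypical cyclin of resting cells, rose by 1.49 (adjusted p = 6.09e-05), Cdkn1a, the CDK inhibitor p21, by 1.42 (adjusted p = 4.06e-05), and Cdkn1c, the CDK inhibitor p57, fell by 1.55 (adjusted p = 7.20e-05).

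**Figure D4:**
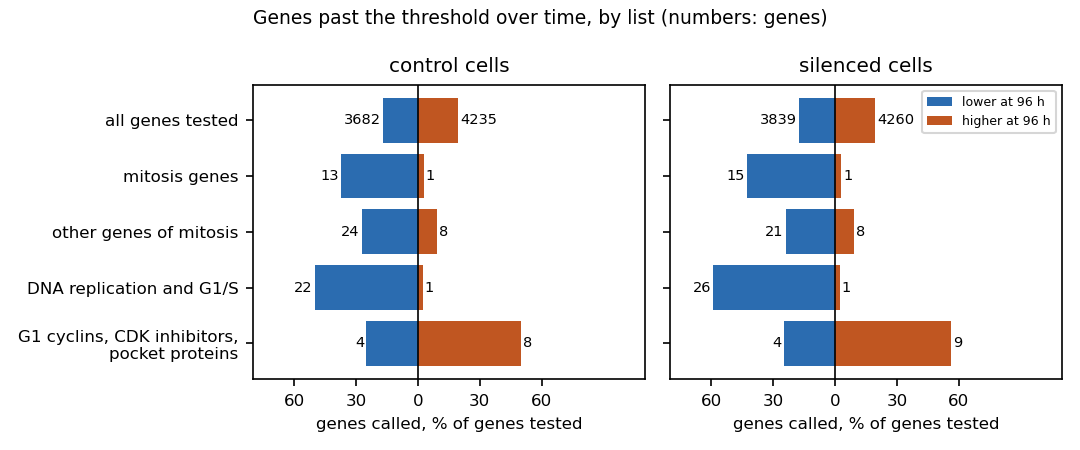
Share of each gene list past the threshold (x axis, percent of genes tested, lower at 96 h in blue to the left, higher in orange to the right), with the number of genes at each bar, in control and silenced cells. The bars of the 35 mitosis genes reach left (13 and 15 genes) with 1 gene on the right, those of DNA replication and G1/S reach further left (22 and 26 genes), and those of all genes are nearly even.

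Markers of cell state moved over the same interval, in which 16.9% of all genes fell and 19.5% rose in control cells. In silenced cells these shares were 17.6% and 19.6%. Embryonic stem cell markers were present in every group, with 11 of 12 tested and none at background. In control cells 2 of them fell and none rose, and in silenced cells 3 fell and 1 rose. Their summed normalised intensity was 268419 to 416836 in control cells at 24 h, 247072 to 422934 at 96 h, and 300837 to 433995 in silenced cells at 96 h. Of 7 tested markers of primed epiblast and primitive streak 6 rose in control cells, from a sum of 8159 to 9040 at 24 h to 15469 to 16375 at 96 h, and 3 rose in silenced cells, whose sum at 96 h was 10620 to 11019. Of 7 tested fibroblast markers 6 rose in control cells and 4 in silenced cells, from sums of 1871 to 1960 and 1869 to 1942 at 24 h to 3061 to 3369 and 2919 to 2975 at 96 h. Endoderm markers rose in 3 of 7 in both kinds of cell (from 645 to 664 to 788 to 818 in control and from 634 to 653 to 1000 to 1040 in silenced cells), with Foxa2 and Afp at background at 24 h. Of 5 mesoderm and blood vessel markers 2 rose and 2 fell in control cells, with sums of 909 to 937 and 869 to 906, and 2 rose and 1 fell in silenced cells. No neural marker passed in control cells (989 to 1013, then 1019 to 1088), and 3 of 5 fell in silenced cells, to 690 to 700 at 96 h. The part of these shifts in the change of the mitosis genes was not tested.

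No change of a mitosis gene with silencing of Pnpla6 was detectable at 24 h. None of the 35 genes passed in limma's test of the array ratios, where 0.372% of all genes did (51 higher and 30 lower), a share so low that a count of 0 says nothing particular about these genes. Of the 35, 1 had an unadjusted p under 0.05. The fitted change was negative in 28 of the 35 genes, in 59 of the 88 other mitosis genes and in 10785 of all 21754 genes, a tally that was not tested. Fitted changes ran from -0.13 to 0.13 with a median of -0.04 and an SE of 0.06 to 0.07. For 10 of the 35 genes the arrays gave ratios of like sign, beside 37.9% of all genes. The gene of smallest p was Top2a, with ratios of -0.27 and 0.01 and a change of -0.13 (unadjusted p = 0.0409, adjusted p = 0.616). Cdc25b came second, with ratios of 0.29 and -0.03 (unadjusted p = 0.057), followed by Anln, with -0.10 and -0.13 (unadjusted p = 0.0839). Of these 3 genes, Anln alone had the same sign on both arrays.

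At 96 h, 2 of the 35 genes passed, 1 higher and 1 lower, where 13.4% of all genes did (6.61% higher and 6.8% lower). Pttg1, securin, had ratios of 0.08 and 0.44 and a change of 0.26 (SE 0.06, adjusted p = 0.00378). Cdc20, the activator of the APC/C that destroys securin, had ratios of -0.25 and -0.16 and a change of -0.20 (SE 0.06, adjusted p = 0.0248). The arrays had the same sign in both genes, but for Pttg1 they differed by more than the fitted change. Ube2c came next by p, with ratios of 0.33 and -0.08 that point in opposite directions and a change of 0.13 (adjusted p = 0.205). The other 32 genes lay between -0.12 and 0.12, and the median of all 35 was -0.01. For 13 genes the arrays gave ratios of like sign, 9 of them negative, beside 51.3% of all genes. Pttg1 passed under 3 and Cdc20 under 2 of 10 alternative settings: neither passed with an offset of 16, with the authors' processed signals, without the dye term or without any 1 of the 4 arrays. The change of Cdc20 stayed between -0.25 and -0.16, and that of Pttg1 was 0.08 without the second and 0.44 without the first 96 h array.

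**Figure D5:**
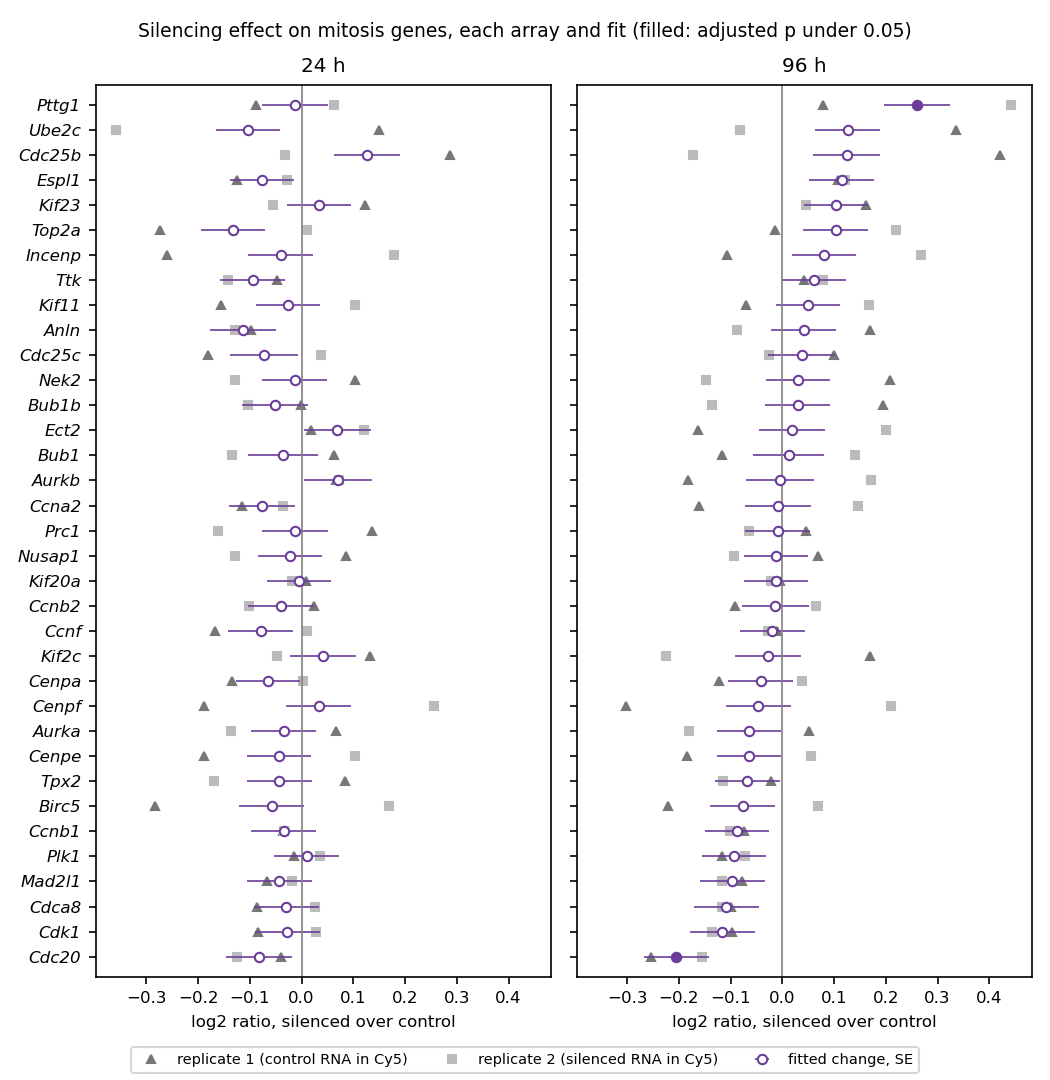
Log2 ratio of silenced to control cells (x axis) of the 35 mitosis genes on each array (triangles replicate 1, squares replicate 2) and the fitted change with its SE (circles, filled where the adjusted p was under 0.05), at 24 h and at 96 h. Replicate ratios range from -0.36 to 0.29 at 24 h and from -0.30 to 0.44 at 96 h and often lie on opposite sides of 0. The filled circles are Pttg1 and Cdc20 at 96 h. The SE comes mostly from the spread pooled across genes after the dye term, and does not show the gap between the arrays of a time.

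The change of the silencing effect from 24 h to 96 h, which equals the difference between the 2 time courses, passed in none of the 35 genes, where it did in 6.92% of all genes (2.83% higher and 4.1% lower), and 4 of the 35 had an unadjusted p under 0.05. The largest differences were those of Pttg1 (0.27, SE 0.09, adjusted p = 0.0590), Top2a (0.23, adjusted p = 0.112) and Ube2c (0.23, adjusted p = 0.123). Of the 88 other mitosis genes none passed at 24 h, and 3 rose and 5 fell at 96 h, where 6.61% and 6.8% of all genes did. Plk4, which starts centriole duplication, fell by 0.33 (adjusted p = 0.000222), with a difference from 24 h of -0.50 (adjusted p = 0.000192). Rbl2, the DREAM pocket protein p130, rose by 0.24 (adjusted p = 0.00846) and Tfdp1 fell by 0.23 (adjusted p = 0.00877). Mybl2, which encodes B-Myb, rose by 0.21 (adjusted p = 0.0192). Of the DNA replication and G1/S genes Ccne1 fell, by 0.20 (adjusted p = 0.0256). Of the 16 G1 cyclins, CDK inhibitors and pocket proteins 5 rose and 3 fell, among them Ccng2 (0.35), Btg1, an antiproliferative factor (0.32), and Cdk6, a G1 kinase (-0.39, adjusted p = 2.67e-05). Markers of cell state moved at 96 h as well, silenced against control: of the embryonic stem cell markers 6 of 11 were higher and 1 lower, of the epiblast and primitive streak markers 4 of 7 were lower, and of the fibroblast markers 2 of 7 were higher and 4 lower. Their part in the calls of Pttg1 and Cdc20 was not tested.

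Probes of the same gene did not always tell the same story. There were 12 members with more than 1 probe, and in 11 of them more than 1 was above background. Tested probe by probe over 28082 probes, 49 probes of the list gave 18 lower and 1 higher in control cells over time (18.9% and 18% of all probes, 36.9% together), and 24 lower and 1 higher in silenced cells (19.5% and 18.1%, 37.6% together). No probe of the list passed for silencing at 24 h, where 0.406% of all probes did. The silencing effect at 96 h gave 1 higher and 3 lower probes (6.25% and 6.68% of all probes), and its change between the times gave 3 lower probes and none higher (4.12% and 2.81% of all probes). Probes of a gene had the same sign over time in 8 of the 11 genes in control cells and in 11 of 11 in silenced cells, but in 5 of 11 for the silencing effect at 96 h.

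The second probe of Anln, which encodes the cytokinesis scaffold anillin, had ratios of 0.24 and 0.20 at 24 h and of -0.24 and -0.46 at 96 h. Its change at 96 h was -0.35 (SE 0.06, adjusted p = 5.66e-05) and the difference between times was -0.57 (adjusted p = 1.01e-05). The tested probe of Anln had 0.17 and -0.09 at 96 h, a change of 0.04. The second probe of Cdca8 had ratios of 0.14 and 0.04 at 24 h and -0.25 and -0.56 at 96 h. Its change at 96 h was -0.41 (SE 0.06, adjusted p = 5.38e-06) and the difference between times was -0.50 (adjusted p = 0.000118), beside -0.11 at 96 h for the tested probe. Both arrays of a time pointed the same way for these 2 probes. The second probe of Kif11 had 0.02 and 0.26 at 24 h and -0.16 and -0.17 at 96 h, with a difference between times of -0.31 (adjusted p = 0.0292). Over time in silenced cells these probes fell by 0.49 (adjusted p = 0.0116), 0.69 (adjusted p = 0.00539) and 0.64 (adjusted p = 0.00661). Without the dye term, or without any 1 of the 4 arrays, none of the silencing calls of these probes passed (adjusted p from 0.186 to 0.813 without the dye term).

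Other second probes differed in the size of the fall. The second probe of Ect2, a cytokinesis gene, fell by 0.57 (adjusted p = 0.00186) in control and 0.64 (adjusted p = 0.00107) in silenced cells, where the tested probe had 0.03 and -0.02. The other probes of Cenpe fell by 0.34 and 0.47 in control cells (adjusted p = 0.0405 and 0.0206) and by 0.44 and 0.68 in silenced cells, where the tested probe had -0.16 and -0.18. Of the further probes of Ccnb1, 1 fell by 0.38 in both courses (adjusted p = 0.0154 and 0.0157) and 1 had changes of -0.12 and -0.18 that did not pass. A second probe of Cdc25b fell by 0.44 (adjusted p = 0.00674) and 0.40 (adjusted p = 0.0102), and that of Top2a fell in silenced cells by 0.39 (adjusted p = 0.0285). Further probes of Kif23 (-0.39 and -0.31), Cdc25c (-0.08 and -0.26), Cenpf (-0.04 and -0.07) and the third of Cdc25b (-0.21 and -0.28) did not pass. A second probe of Cdk1 was not well above background in any channel. The accessions tie these probes to a gene and not to a transcript, so whether they read different transcripts was not tested.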

How the data were processed

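RNA of silenced and control D3 cells was compared on 4 two-colour Agilent arrays, on 2 slides (the second held only 96 h replicate 2). Per the file headers, the authors extracted the scans with Feature Extraction 10.7.1.1; the submitters' processing notes name version 10.7 and limma. The deposited files hold spot and background intensity in arbitrary units, a log10 ratio (red channel over green) and, not used here, a p-value per spot. The deposited series table holds log10 ratios of silenced over control, which match the scanner values within 4.97e-06 and have a median of 0 in each column. The genome build of the files differs from that of the reference tables, so array probes carry no coordinates.

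Files were read in R 4.3.3 with limma 3.58.1 and statmod 1.5.0. Mean spot signals were not used; median signals were corrected with normexp (offset 50, which shrinks ratios of dim probes) and normalised by loess within arrays, with control spots at weight 0. Log2 values were computed from these deposited intensities. Spots of a probe were averaged. Probes had to be well above background on both arrays of at least 1 RNA group (28082 of 41174), and each gene was tested on its brightest probe. RefSeq accessions named 24375 probes. Silencing effects came from lmFit and eBayes on log2 ratios, with a mean per time and a dye term (1 residual degree of freedom and 33.2 prior degrees of freedom, so each p-value draws mostly on the spread pooled across genes). Time courses came from lmscFit on single channels after Aquantile normalisation, with 4 RNA groups and a dye term, at a within-spot correlation of 0.896. Tests were two-sided, with Benjamini-Hochberg adjustment over 21754 genes, or over 28082 probes where probes are named; the threshold was 0.05. All comparisons use the same 8 channels and are not independent. The precision is limited by the number of arrays.

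The dye orientation coincides with the replicate number, so the dye term is also the replicate block; deviations of same-numbered arrays from their time's mean correlated at 0.696, over 2 pairs only. Both fits were run on simulated data, with noise and a dye bias that was the same on all arrays. The dye term removes such a bias, so that run could not show how the fits deal with other differences between replicates. The members and gene lists were chosen with earlier results of these data known. Named are Pnpla6, the members past the threshold (the 6 largest falls and rises with all values where over 10 passed), and the 3 of smallest p where fewer than 3 passed. Members whose probes differ and up to 3 genes of each further list are also named. Foxm1, Mybl2, Bub3, Mad1l1 and the remaining members were added for their roles. Alternatives were an offset of 16, processed signals, no filter, the median over probes, each array left out, other normalisations, no dye term and a slide block. Promoter sequences and motif searches used RefSeq's promoter table (GRCm38.p6, 250 bases before to 50 after the start). Only the first listed start of each gene was searched. Prc1 and Ect2 had 2 starts.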

Additional observations from a re-analysis of the deposited data

Results flagged for a closer look

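The silencing effect differed between the times, by the limma test of the difference itself, for the targeted gene and for 3 probes of mitosis genes that were not the brightest of their gene. For Pnpla6 the effect at 96 h minus that at 24 h was 0.87 on the log2 scale (adjusted p = 6.44e-09), from -0.87 at 24 h to 0.01 at 96 h. For the second probe of Anln the difference was -0.57 (adjusted p = 1.01e-05), with ratios of 0.24 and 0.20 on the 24 h arrays and -0.24 and -0.46 on the 96 h arrays. For the second probe of Cdca8 it was -0.50 (adjusted p = 0.000118), with ratios of 0.14 and 0.04 at 24 h and -0.25 and -0.56 at 96 h. For the second probe of Kif11 it was -0.31 (adjusted p = 0.0292). The brightest probes of the same 3 genes had differences of 0.15 (Anln), -0.08 (Cdca8) and 0.08 (Kif11), none past the threshold. The differences kept their sign under every alternative run but not their call: that of Pnpla6 passed under 4 of 10 (adjusted p up to 0.472), and those of the Anln, Cdca8 and Kif11 probes under 3, 2 and 1 of 9. No cause of these differences between probes was tested.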

How the results depend on the processing

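At 24 h and for the difference between times, none of the 35 genes passed under any alternative. At 96 h the count of 2 became 0 with an offset of 16, 0 with the authors' processed signals, 1 with median centring (Pttg1), 0 without the dye term (no replicate block), and 0 to 0 with each array left out; it was 2 without the filter and 3 with the median over a gene's probes. Over all genes the 96 h count of 2918 was then 1016 with an offset of 16, 0 with processed signals (3846 at an unadjusted p under 0.05), 106 without the dye term, 29 to 114 with an array left out, and 1798 (1126 higher, 672 lower) with median centring. The 24 h count of 81 was 113 without the filter, 42 with median centring, 13 with the median over probes and 0 otherwise. The count for the difference, 1506, was 271, 0, 737, 1030 and 0 with the offset, processed signals, median centring, the median over probes and no dye term.

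Over time the member count stayed between 12 and 21 in both courses (14 in control and 16 in silenced cells, each 21 without the replicate block), and with an array left out it ranged from 20 to 26 in control and from 20 to 23 in silenced cells. Without normalisation between arrays the median of all genes moved to 0.07 in both courses and the calls split into 4865 higher and 2770 lower in control and 4906 higher and 2886 lower in silenced cells, where the members gave 1 higher and 14 lower, and 1 higher and 15 lower. The median change of the members ranged from -0.35 to -0.23 in control and from -0.36 to -0.24 in silenced cells. With slide as a block 18 and 17 members passed.

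Signs turned for genes that had not passed: Anln at 24 h with the median over probes (0.0528), and, with an array of that time left out, Top2a (-0.274 to 0.00957) and Cdc25b (-0.0327 to 0.286) at 24 h, and Ube2c (-0.0827 to 0.335) and Pnpla6 (-0.109 to 0.125) at 96 h. The difference of Ube2c ran from -0.0244 without the second 24 h array to 0.484 without the first. The cause of these changes was not tested. Fits with an array left out had no dye term for the ratios, and single-channel ones took the correlation of all 4 arrays.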
